A study of Sus scrofa with 6 samples.

Results

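The miR-30 family was examined in deciduous tooth germs of miniature pig embryos. Probes were taken as members when their name, after a pig, general or PN prefix, carried the number 30, whatever the letter or arm. This gave 13 of the 742 experimental probes on the arrays, and predicted candidates with a PC prefix were not counted. Of the 13 probes, 7 read the 5' arm (5 of them probes for mature pig miRNAs) and 6 read the 3' arm (3 of them for mature pig miRNAs). All 13 passed the filter for testing, which asked for signal above background in at least 3 RNAs.

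The RNAs came from molar, premolar, canine and incisor germs at embryonic days 40, 50 and 60, with 1 RNA for each of the 12 conditions. The germs were taken out under a microscope; the labels leave unsaid if 1 embryo or several gave each RNA. No genotype or treatment is given in the labels, so tooth type and day define the groups, which also differ in array, dye and density column. Each of 6 dual-colour arrays took 2 of the RNAs and read every probe in 4 spots. Since each condition was measured once, a tooth type is described over its 3 days and a day over its 4 tooth types.

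MicroRNAs are short RNAs that lower the output of messenger RNAs, mainly by pairing through the seed, bases 2 to 8 counted from the 5' end. A hairpin precursor yields one strand from its 5' arm and one from its 3' arm, and in the miR-30 family the 5' strand is the usual guide. In mouse osteoblast precursors, miR-30 members have been reported to hold back differentiation by acting on Smad1 and Runx2. A tooth germ consists of an epithelial enamel organ and a mesenchymal papilla and follicle, and Runx2 is needed for its development in the mouse.

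The probe targets show why the members have to be read with care. The mature pig targets are printed in the 5' to 3' direction as deposited, with the seed in capitals.
ssc-miR-30a-5p: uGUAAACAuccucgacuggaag
ssc-miR-30b-5p: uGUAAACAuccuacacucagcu
ssc-miR-30c: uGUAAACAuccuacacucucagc
ssc-miR-30d: uGUAAACAuccccgacuggaagcu
ssc-miR-30e-5p: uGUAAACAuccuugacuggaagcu
ssc-miR-30a-3p: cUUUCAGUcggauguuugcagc
ssc-miR-30b-3p: cUGGGAGGuggauguuuacuu
ssc-miR-30e-3p: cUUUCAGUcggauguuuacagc
All 7 targets of the 5' arm share the seed GUAAACA and their first 11 bases. Over their shared length, miR-30d differs from miR-30a-5p by U12C and miR-30e-5p differs from miR-30a-5p by C13U, with positions counted from the 5' end. miR-30b-5p and miR-30c are alike over their first 18 bases and part only near the 3' end. The further probes miR-30a-5p-186 and miR-30c-5p-2750 hold the whole pig sequence of their name and run past its 3' end, by 2 and 1 bases. The 6 targets of the 3' arm fall under 3 seeds, one shared by miR-30a-3p and miR-30e-3p, one by the 2 miR-30b-3p probes and one by the 2 miR-30c-3p probes. The 2 miR-30c-3p targets differ from each other by A9G, C12U and U22C. Probes this alike may read part of each other's RNA, and the cross-reaction was not tested.

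In the RefSeq annotation of the pig assembly Sscrofa11.1, used for names and neighbours only, 6 miR-30 loci were listed. Genes that contain a locus aside, the nearest gene of each was another miR-30 locus, giving 3 pairs. MIR30A was paired with MIR30C-2, both inside LOC102157778. MIR30B was paired with MIR30D. MIR30C-1 was paired with MIR30E, both inside NFYC, the gene of a subunit of the transcription factor NF-Y. The mature miR-30c is thus listed at a locus beside miR-30a and at another beside miR-30e, and a mature sequence does not tell which of them it came from.

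Signal differed sharply between the arms. The 7 probes of the 5' arm were detected in 84 of 84 measurements, where detection meant a mean more than 3 SD of the blank spots above the local background. They stood 6.57 to 258 blank SDs above it, with normalised log2 intensities of 7.01 to 9.99. The 6 probes of the 3' arm were detected in 26 of 72 measurements and stood between -1.94 and 6.48 blank SDs, with log2 intensities of 6.15 to 6.65. Of these 26 detections, 25 of 36 fell in the left density column of the arrays and 1 of 36 in the right. The left column had the higher blank readings on every array. By labelled dye the split was the same, 25 of 36 for Cy3 and 1 of 36 for Cy5, so column and dye cannot be told apart here. The later molars, where headings and labels disagree, detected 0 of 6 probes of the 3' arm in either column.

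**Figure D1:**
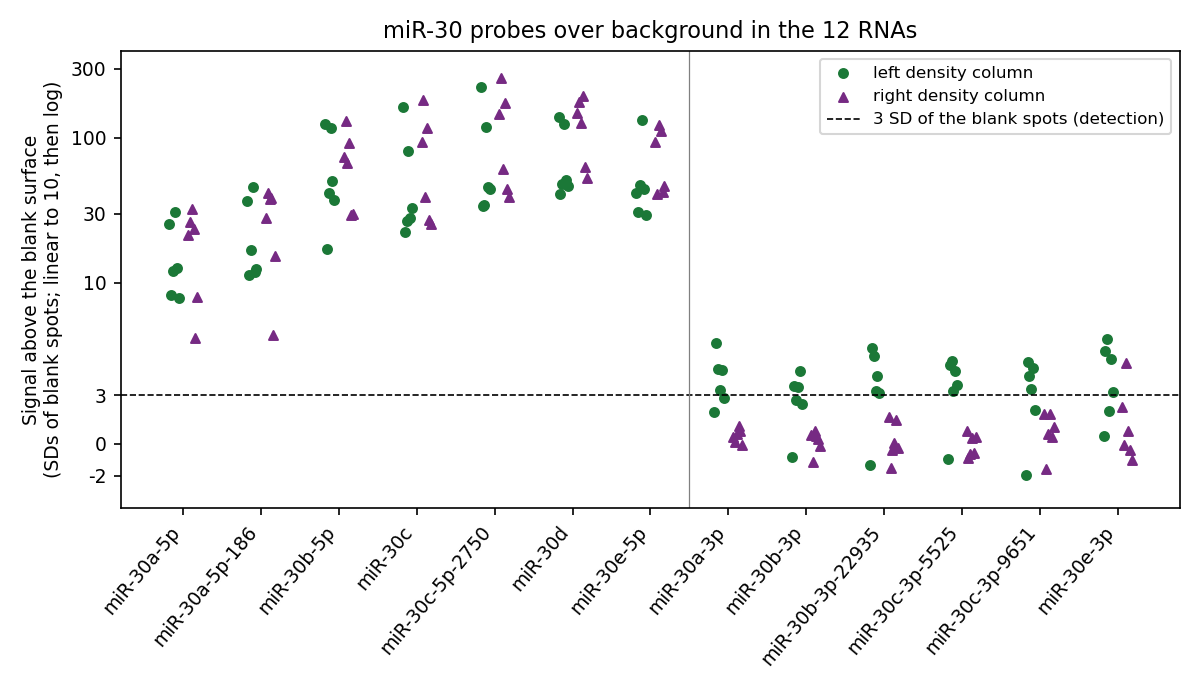
Signal of each miR-30 probe above the background surface, in SDs of the blank spots (vertical axis, linear to 10 and logarithmic beyond), for the 12 RNAs of each probe (horizontal axis). Circles are RNAs in the left density column and triangles those in the right. The 7 probes of the 5' arm, left of the grey line, all lie above the dashed detection limit, while the 6 probes of the 3' arm pass it 25 times in the left column and once in the right.

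The distance between the lowest and highest of the 12 RNAs had a median of 1.36 on the log2 scale over the 7 probes of the 5' arm. It had a median of 0.27 over the 6 probes of the 3' arm, of 0.84 over all 656 tested probes, many of them near background, and of 2.48 over the 222 probes detected in all 12 RNAs. All 7 probes lay below the last of these medians. Among the 7, the distance was widest for miR-30c-5p-2750 (1.62), miR-30c (1.61) and miR-30e-5p (1.51), and narrowest for miR-30a-5p (0.80). The 3' arm values lay close to the floor that the background offset sets, and these probes are given by ranges and counts in what follows.

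For the question which members differ between tooth types, miR-30e-5p is described first, for its low level in molars. Its normalised log2 intensity was 8.11, 7.89 and 8.05 in molars on days 40, 50 and 60. The premolars read 9.25, 8.78 and 8.78, the canines 8.72, 9.41 and 8.87, and the incisors 8.68, 9.36 and 8.68 on the same days. All 3 molar RNAs lay below the other 9, which began at 8.68. Such a separation was found for 1 of 13 members and for 7.16% of the tested probes, so the members' share was near that of all probes. The separation was lost with median centring, where the molars read 8.66 to 9.04 and the other RNAs 8.08 to 9.70. It was also lost without scaling between arrays, where they read 8.20 to 9.41 and 7.87 to 9.08. miR-30e-5p averaged 8.02 ± 0.11 in molars (SD, n = 3), against 8.94 ± 0.27 in premolars, 8.999 ± 0.36 in canines and 8.91 ± 0.40 in incisors.

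In limma, fitted with tooth type, day and dye and with the array as a random block, no member passed for tooth type. The F test over the 4 tooth types called 0 of 13 members at an adjusted p below 0.05, beside 0.915% of all tested probes. At an unadjusted p below 0.05 it listed 1 of 13, miR-30e-5p (adjusted p = 0.232), beside 18.8% of all probes, so the members' share was not above the background. miR-30e-5p was lower in molars than in premolars by a log2 difference of -0.88 ± 0.25 (SE, adjusted p = 0.193). The difference was -0.78 ± 0.22 against canines (adjusted p = 0.165) and -0.66 ± 0.26 against incisors (adjusted p = 0.203). Between single tooth types 0 of 13 members passed in each of the 6 contrasts. The share of all probes was 0.152% for molar minus premolar, 0.457% for molar minus canine, 0.305% for molar minus incisor, 0.762% for premolar minus canine, 0.915% for premolar minus incisor and 0% for canine minus incisor. The scaling of the channels turned the sign of some of the miR-30e-5p differences. With median centring they were 0.32 against premolars and 0.73 against incisors, where the medians of all probes were 0.08 and 0.15, and -0.07 against canines. Without scaling between arrays the difference against incisors was 0.04, where the median of all probes was 0.27, while those against premolars and canines kept their sign at -0.19 and -0.27.

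The molar days 50 and 60 shared one array that held no other tooth type, so only the day-40 molar was set beside another tooth type on its own array. There miR-30e-5p was lower in the day-40 molar than in the day-40 canine by a log2 ratio of -0.61 ± 0.04 (SD of 4 spots). This ratio was -0.92 in the authors' deposited table and 0.34 with median centring. Marker lists were also set side by side for molars and the other RNAs. The 7 blood probes averaged 6.48 to 6.53 in molars and 6.71 to 7.33 in the other RNAs, without overlap. Only 1 or 2 of these 7 probes were detected in a molar RNA. The same held for the day-40 and day-60 premolars, the day-60 canine and the day-50 incisor, while the remaining RNAs detected 5 to 7. The ranges of the other lists overlapped. The 18 mesenchymal probes averaged 8.78 to 9.19 in molars and 8.99 to 9.74 elsewhere, and the 9 muscle probes 6.34 to 6.65 and 6.46 to 8.21. The epithelial probes averaged 7.97 to 8.63 in molars and 7.92 to 8.34 elsewhere, the endothelial 7.42 to 8.05 and 7.45 to 8.74, and the neural 6.49 to 6.98 and 6.44 to 6.58. The part of other cells in the miR-30e-5p levels was not tested. In whole germs, fewer cells of a type and less of an RNA per cell cannot be told apart.

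miR-30c went the other way in the later molars. Its normalised log2 intensity was 8.14, 9.52 and 9.58 in molars on days 40, 50 and 60. The premolars read 7.97, 8.33 and 8.83, the canines 8.02, 8.70 and 8.33, and the incisors 8.06, 8.56 and 8.81. The highest values were those of the later molars, which share an array, while the day-40 molar lay below every RNA of the later days. The further probe miR-30c-5p-2750 gave the same picture, with 8.64, 9.97 and 9.99 in molars and 8.37 to 9.41 in the other 9 RNAs. Molar minus incisor was 0.44 ± 0.20 for miR-30c (adjusted p = 0.245 in limma) and 0.46 ± 0.19 for miR-30c-5p-2750 (adjusted p = 0.224). For miR-30c it passed without the day-40 molar (0.96, adjusted p = 0.0238) and without the day-40 molar and canine array (0.94, adjusted p = 0.0442), and it was 0.21 without the array of the later molars. Over 28 alternatives its adjusted p ranged from 0.0238 to 0.827, so the call rested on leaving the day-40 molar out. The share of all probes called for molar minus incisor in those fits is not given here. For posterior minus anterior, the fit without the day-40 molar called 122 of the 656 probes, beside 0% in the main fit.

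miR-30c and miR-30e-5p can also be set against each other within an RNA. A difference of levels between probes has no meaning in itself, since probes bind with different strength, but its course over the RNAs can be read. A shift common to a whole channel cancels in it. miR-30c minus miR-30e-5p was 0.03, 1.62 and 1.53 in molars on days 40, 50 and 60, and ran from -1.28 to 0.14 in the other 9 RNAs. With miR-30c-5p-2750 in place of miR-30c, the later molars stood at 2.08 and 1.94 and the remaining RNAs at -0.81 to 0.63. Both of these RNAs came from 1 array, and array and later molar cannot be told apart. Across the 12 RNAs the levels of miR-30c and miR-30e-5p had a Pearson correlation of -0.49, a description of RNAs that share arrays, dyes and normalisation. The pair was picked with its values in view.

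**Figure D2:**
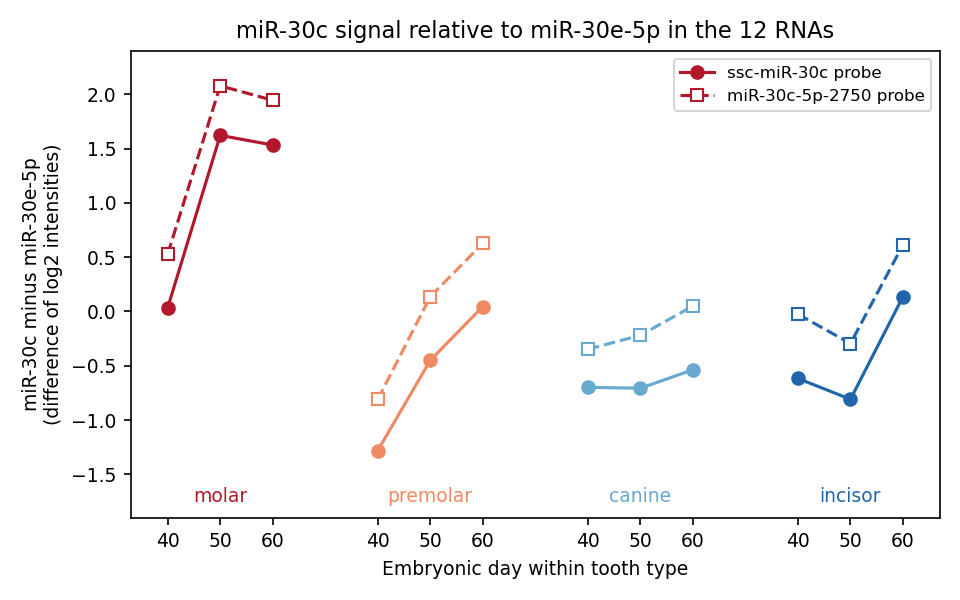
Difference of normalised log2 intensities, miR-30c minus miR-30e-5p (vertical axis), in the 12 RNAs by tooth type and embryonic day (horizontal axis), with filled circles for ssc-miR-30c and open squares for miR-30c-5p-2750. The molars of days 50 and 60 stand at 1.62 and 1.53 for ssc-miR-30c, above all other RNAs; the height of a single point carries no meaning because probes differ in binding.

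miR-30b-5p, whose target is alike to that of miR-30c over 18 bases, differed between posterior and anterior germs on the arrays that held one of each. Its log2 ratio was -0.23 ± 0.11 for the day-40 premolar over the day-40 incisor (SD of 4 spots). It was -0.71 ± 0.09 for the day-40 molar over the day-40 canine and -0.43 ± 0.05 for the day-60 premolar over the day-60 incisor. On the array that paired the day-60 canine with the day-50 premolar, the canine over the premolar was 0.38 ± 0.21. The posterior germ was lower in all 4 spots of all 4 arrays, which held for 1 of 13 members and for 0.762% of tested probes. The posterior germ was in the right density column on 3 of these arrays and in the left on the array of the day-50 premolar. In the authors' deposited table the 4 ratios, in the same order, were -0.35, -1.02, -0.72 and 0.56. With median centring the molar over canine ratio was 0.19 and the day-60 premolar over incisor ratio 0.18. This pattern was noticed in the values and carries no test.

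Over all RNAs the picture for miR-30b-5p was mixed. Its log2 intensity was 7.84, 9.13 and 9.20 in molars, 8.56, 8.04 and 8.54 in premolars, 8.54, 9.17 and 8.42 in canines, and 8.79, 8.75 and 8.97 in incisors on days 40, 50 and 60. The premolars lay below every incisor, as they did for 2 of 13 members (the other being miR-30c-3p-5525, near background) and for 4.57% of tested probes. The molars held the lowest RNA and the highest. Posterior minus anterior was -0.33 ± 0.15 in limma (adjusted p = 0.267). It was 0.03 without the day-40 molar and 0.15 without the day-50 premolar. No member passed for posterior against anterior germs, 0 of 13, with 0% of all probes called. At an unadjusted p below 0.05 the count was also 0 of 13, beside 21.2% of all probes. Without the day-40 molar, miR-30c passed with a difference of 0.48 ± 0.11 (adjusted p = 0.0391), in a fit that called 122 of the 656 probes. Over the alternatives the smallest adjusted p of a member in this comparison ranged from 0.0391 to 0.998.

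Of the members, miR-30c had the largest differences between day 60 and day 40. The 8 RNAs of days 50 and 60 lay between 8.33 and 9.58, above all 4 day-40 RNAs, which lay between 7.97 and 8.14. The means were 8.05 ± 0.07, 8.78 ± 0.52 and 8.89 ± 0.51 on days 40, 50 and 60 (SD, n = 4). miR-30c-5p-2750 showed the same separation, with means of 8.53 ± 0.14, 9.29 ± 0.47 and 9.40 ± 0.44. Such a separation was found for 2 of 13 members, both probes of one miRNA, and for 3.81% of tested probes. Day 60 was above day 40 in 4 of 4 tooth types for both probes, by log2 differences of 0.79 ± 0.25 (adjusted p = 0.351 in limma) and 0.83 ± 0.24 (adjusted p = 0.308).

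miR-30d had a smaller difference between these days and the smallest p of the members in the F test for day. Its log2 intensity was 8.67, 9.28 and 9.56 in molars on days 40, 50 and 60, 9.34, 9.17 and 9.55 in premolars, 8.78, 9.33 and 9.34 in canines, and 8.88, 9.52 and 9.34 in incisors. Day 60 was above day 40 in 4 of 4 tooth types, though the groups overlapped through the day-40 premolar. Day 60 minus day 40 was 0.62 ± 0.21 (adjusted p = 0.377 in limma) and day 60 minus day 50 was 0.30 ± 0.11 (adjusted p = 0.281). The second of these rested on the later molars. It was -0.03 with their RNAs exchanged and -0.04 without the day-60 molar.

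No member passed for day. The F test over the 3 days called 0 of 13 members in limma, beside 0% of all tested probes. At an unadjusted p below 0.05 it listed 3 of 13 members, beside 15.5% of all probes. Between single days 0 of 13 members passed as well, beside 0.762% of probes for day 60 minus day 40, 0.457% for day 50 minus day 40 and 0% for day 60 minus day 50. The 3 members listed by the F test were miR-30d (adjusted p = 0.252), miR-30c-5p-2750 (adjusted p = 0.261) and miR-30c (adjusted p = 0.308). All 7 probes of the 5' arm had a day 60 minus day 40 difference above 0, with a median of 0.35, while 335 of 656 tested probes did, with a median of 0.00. Many of the 656 lay near background. In a fit limited to probes detected in all 12 RNAs, as these 7 were, the median of all probes was 0.10. These 7 probes carry 5 names and alike targets, so they are not 7 separate observations. The day-40 RNAs filled 2 arrays that took no older germ, and age and array cannot be told apart there. The separation of miR-30c by day was lost with median centring (7.72 to 10.8 on days 50 and 60, 7.57 to 8.65 on day 40) and without scaling between arrays (7.97 to 11.2 and 7.27 to 8.23). The 17 epithelial probes averaged 8.25 to 8.63 on day 60 and 7.92 to 8.13 on day 40, and their part in the day differences was not tested. The mesenchymal probes averaged 8.80 to 9.68 on day 60 and 8.99 to 9.19 on day 40. These ranges overlapped, as did those of the muscle, blood, endothelial and neural lists.

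**Figure D3:**
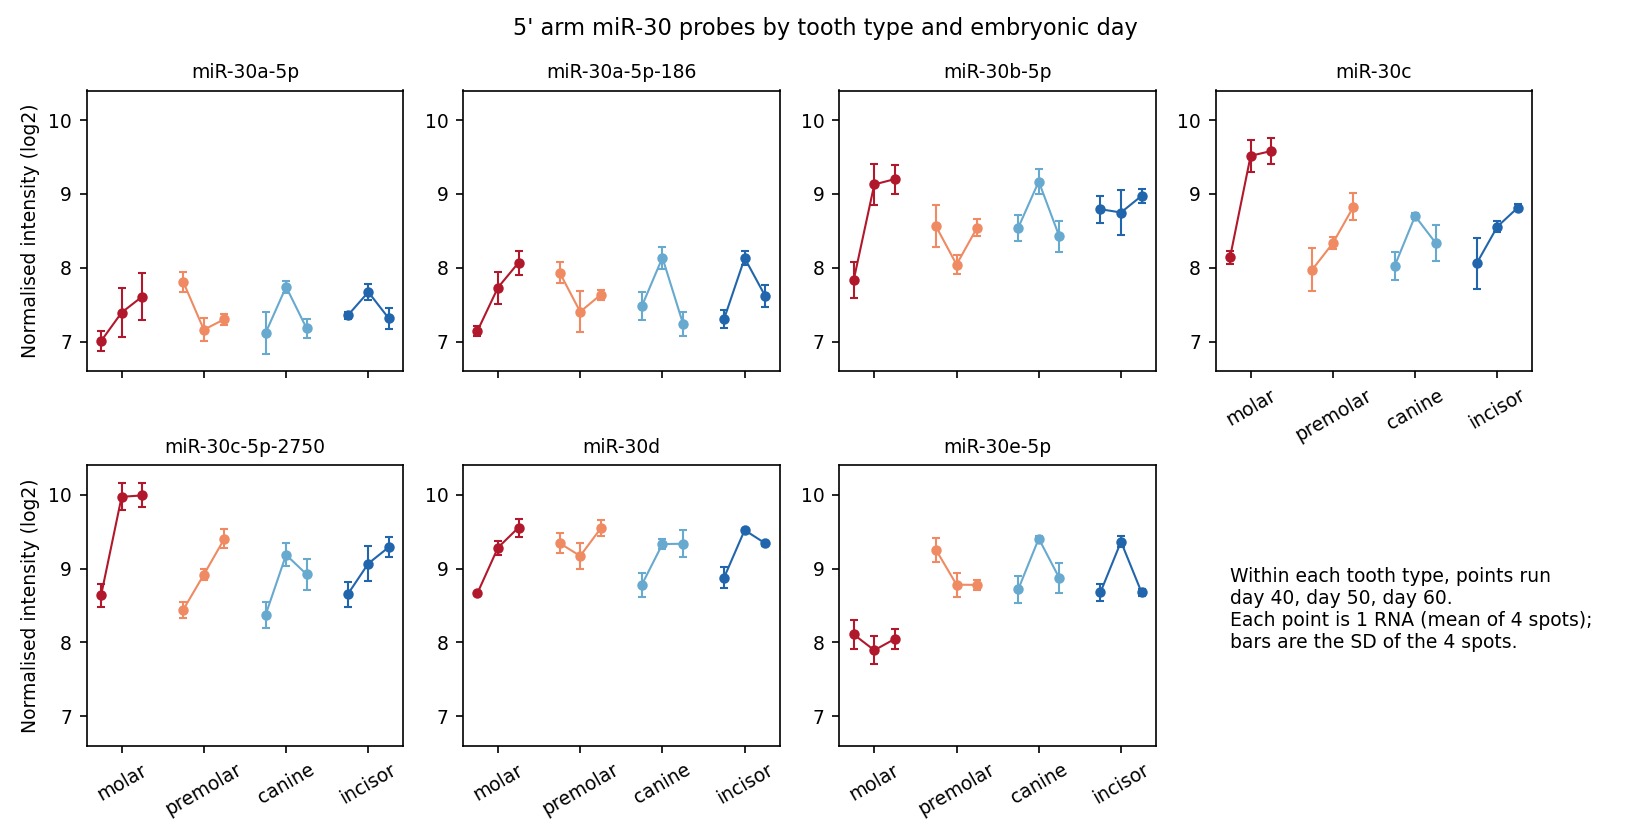
Normalised log2 intensity (vertical axis) of the 7 miR-30 probes of the 5' arm by tooth type (horizontal axis), each point 1 RNA as the mean of 4 spots with the SD of the spots, and days 40, 50 and 60 in order within a tooth type. miR-30e-5p is lowest in the 3 molars (7.89 to 8.11), and both miR-30c probes are lowest on day 40 and highest in the later molars.

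miR-30a-5p varied least among the probes of the 5' arm. Its log2 intensity was 7.01, 7.39 and 7.61 in molars on days 40, 50 and 60, 7.81, 7.16 and 7.30 in premolars, 7.11, 7.74 and 7.18 in canines, and 7.35, 7.67 and 7.31 in incisors. The tooth types overlapped, with means between 7.34 and 7.45 and SDs of 0.20 to 0.35 (n = 3). miR-30a-5p-186 had tooth type means of 7.62 to 7.68 and correlated with miR-30a-5p at r = 0.90 over the 12 RNAs. The 2 miR-30c probes correlated at r = 0.99. Probes of one miRNA thus ran more alike than probes of different members did, whose r lay between -0.49 and 0.70, although these 12 points share arrays and normalisation.

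The 2 RNAs of an array can be set side by side without scaling between arrays, and the members differed by little there. A ratio of 2-fold or more in the same direction in each of the 4 spots, with the probe detected in either RNA, was met by 0 of 78 member ratios. It was met by 3.4%, 3.97%, 10.8%, 5.7%, 4.1% and 3.25% of the probes detected in either RNA of the 6 arrays. The 78 also hold ratios of 3' arm probes that neither RNA detected. For the 5' arm the largest ratio was 1.63-fold, for miR-30b-5p on the array of the day-40 molar and canine. There 7.32% of all tested probes went beyond it. On the array of the day-50 canine and incisor the largest ratio of the 5' arm was 1.34-fold, and 20.4% of tested probes went beyond it. The shares on the other arrays lay between these. Each pair was hybridised once, so the spread of the spots is technical and no test was made.

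On the day-40 array of premolar over incisor, 4 probes were higher in the premolar in all 4 spots. Their log2 ratios were 0.63 ± 0.14 for miR-30a-5p-186, 0.58 ± 0.13 for miR-30e-5p, 0.47 ± 0.20 for miR-30d and 0.45 ± 0.16 for miR-30a-5p (SD of 4 spots). The targets of these 4 probes differ from one another by at most 2 bases over their shared length. miR-30b-5p (-0.23) and miR-30c-5p-2750 (-0.21) ran the other way. For the same pair of tooth types on day 60 the ratio was 0.02 for miR-30a-5p-186, 0.10 for miR-30e-5p, 0.20 for miR-30d and -0.01 for miR-30a-5p. The day-40 values of these 4 probes were thus larger than the day-60 ones, a difference that rests on 1 array each and was not tested. With median centring the order turned for miR-30d (0.40 on day 40, 0.83 on day 60) and miR-30e-5p (0.51 and 0.71). It held there for miR-30a-5p-186 (0.59 and 0.49) and miR-30a-5p (0.42 and 0.34). On the day-40 molar over canine array, miR-30b-5p (-0.71), miR-30e-5p (-0.61) and miR-30a-5p-186 (-0.34) were lower in the molar, and miR-30c-5p-2750 was higher (0.27 ± 0.15). The pig probes miR-30a-5p (-0.11 ± 0.18) and miR-30c (0.12 ± 0.15) had spots on both sides of 0 there. The day-50 canine over incisor array gave 0.42 ± 0.15 for miR-30b-5p and -0.19 ± 0.08 for miR-30d. On the array of the later molars all 7 probes were higher on day 60 than on day 50, by 0.02 to 0.34, with a median of 0.15 beside 0.00 over all tested probes. The labels and the column headings disagree on which RNA of that array had which dye, and exchanging the RNAs turns these signs.

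**Figure D4:**
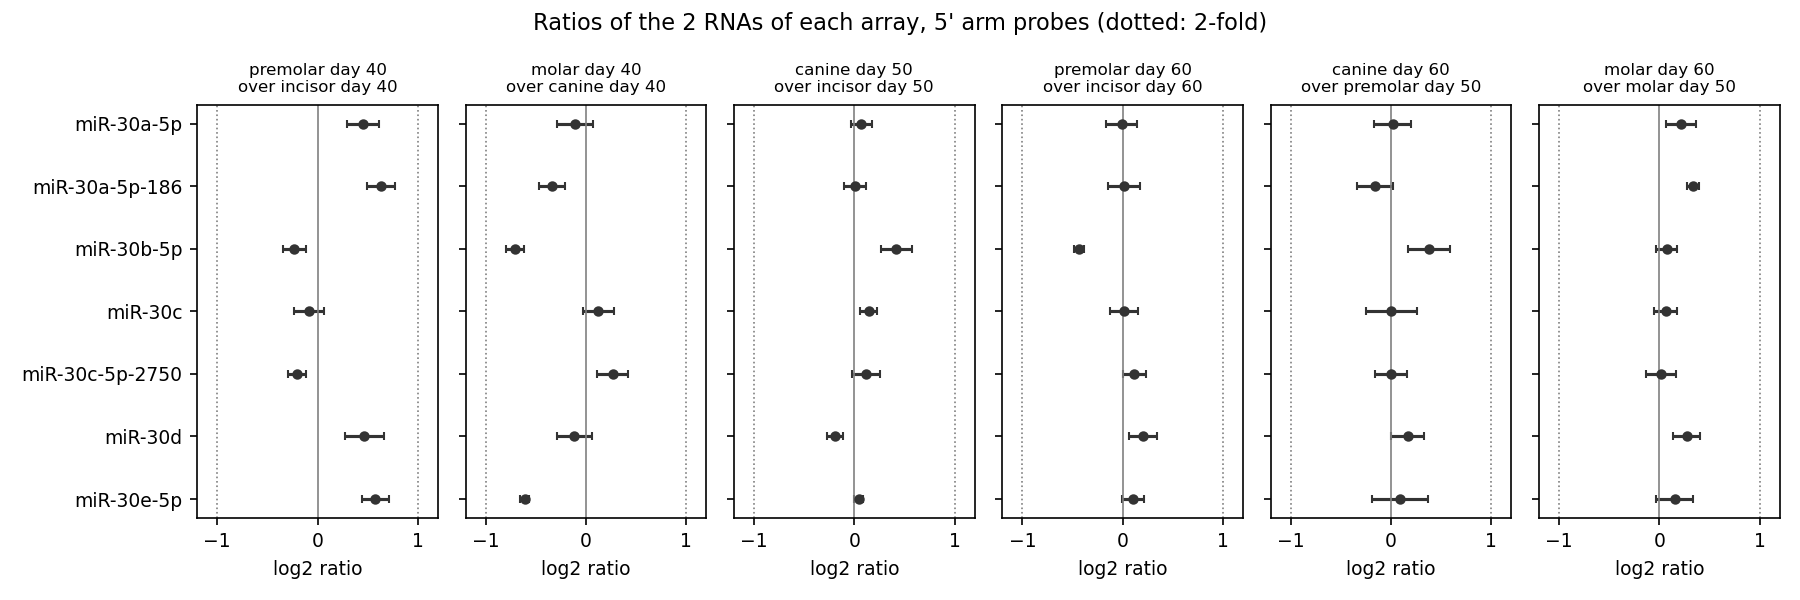
Log2 ratios (horizontal axes) of the 2 RNAs on each of the 6 arrays for the 7 probes of the 5' arm (rows), as means of 4 spots with the SD of the spots, and dotted lines at 2-fold. miR-30b-5p lies below 0 in the premolar and molar over incisor and canine panels and above 0 for the day-60 canine over the day-50 premolar.

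The miRNAs whose course was most like that of the family were sought among 168 other mature pig probes, by Pearson correlation over the 12 RNAs with the mean of the 5 pig probes of the 5' arm. That mean was lowest in the day-40 molar (7.95) and highest in the day-50 canine (8.87). The closest were miR-24 (r = 0.92), miR-99a (0.87), miR-125b (0.77), miR-199a-3p (0.75) and miR-708 (0.74). miR-24 read 9.27, 10.43 and 10.46 in molars on days 40, 50 and 60, 10.07, 10.09 and 10.24 in premolars, 9.60, 10.89 and 10.02 in canines, and 10.21, 10.90 and 10.52 in incisors. Like the family mean, miR-24 was lowest in the day-40 molar and among the highest in the day-50 canine and incisor. All of these points share arrays and normalisation.

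Other miRNAs reported in mouse osteoblast-lineage cells to target Runx2 served as a list for comparison. Of its 10 names, 9 had a probe, giving 22 probes of which 20 were tested. For tooth type 2 of 20 passed, beside 0.915% of all probes, both of them miR-133a probes, a muscle-enriched miRNA that was higher in premolars than in incisors (3.22 and 3.13 on the log2 scale), and for day 0 of 20 passed, beside 0% of all probes (limma). At an unadjusted p below 0.05 the day test listed 1 of 20, beside 15.5% of all probes. The median of the list was 0.15 for molar minus incisor and 0.07 for day 60 minus day 40, against medians of 0.01 and 0.00 over all tested probes. Its day 60 minus day 40 differences ran in both directions, at -1.99 for miR-218-5p-18206, the 1 probe listed (adjusted p = 0.215 in the F test), and at 1.11 for the pig probe of miR-23a (adjusted p = 0.691). Another 5' arm probe of miR-218, miR-218-5p-53526, stood at 0.49 (adjusted p = 0.797 in the F test). It was detected in 10 RNAs, and miR-218-5p-18206 in 6.

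The labelled tissue was checked against markers of its cells. The epithelial miR-205 was detected in all 12 RNAs, at 10.72 to 12.53 for the pig probe, and so were the mesenchymal miR-199a-3p, at 9.78 to 12.12, and miR-214, at 12.25 to 13.96. Of the miRNAs of other cells, miR-451 of blood (7.21 to 12.39) and the endothelial miR-126-3p (8.48 to 11.12) were detected in all 12 RNAs, and the muscle miR-133a (6.39 to 10.28) in 10. Several other members of these lists were detected in fewer: miR-126-5p in 6 RNAs, the pig probes of miR-486 in 5, miR-206 in 7, miR-142 in 3, miR-208b in 3 and miR-1 in 1. Of the 17 epithelial probes 10 were detected in all 12 RNAs, and of the 18 mesenchymal probes 12. The pig probes of the epithelial miR-184 and the mesenchymal miR-140 were detected in 3 and 4 RNAs. Of the 7 neural probes 1, miR-128 (6.93 to 9.06), was detected in all 12 RNAs. From 266 to 732 of the 742 probes were detected per RNA, and with 6 arrays in all the precision of every comparison is limited.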

How the data were processed

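Small RNAs were tagged and stained with Cy3 or Cy5 and hybridised in pairs, per the labels' protocols. The deposited spot files hold mean intensities on a linear scale without background removed; digits were grouped by commas, which were taken out. The authors' deposited matrix holds log2 values per array, which correlated with the ratios computed here at r = 0.72 to 0.88, had medians of -0.07 to 0.16 and served as an alternative only; their scaling and centring stay unknown, and their direction was set by that correlation. No source used here names the scanner, the software or a genome build. RNAs were assigned by column heading and dyes by label; these disagree on the array of the later molars. For the incisor labelled day 50 in most fields, one title has another day; day 50 was kept.

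Each array has 3968 spots, 716 of them blank. A background surface through the blank spots (robust loess, span 0.3, degree 1) was corrected by normexp (offset 50), followed by loess within and Aquantile between arrays and averaging of 4 spots, in limma 3.58.1 (statmod 1.5.0, R 4.3.3). Probes above background in 3 or more RNAs, 656 in number, entered a fit on tooth type, day and dye in which the array was a random block (correlation 0.83, 5 residual degrees of freedom, prior 1.26). P-values were adjusted by the Benjamini-Hochberg method over the 656 probes, at a threshold of 0.05; they set differences against the spread of single RNAs and say nothing of the spread between animals. The fit was tested on simulated data. Every miR-30 probe was to be described, with the 5 most alike pig probes. The members and lists were chosen with earlier results of these data known. Alternatives covered normalisation, background, filter, block, dye, exchange of the later molars, and omission of each RNA and array.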

Additional observations from a re-analysis of the deposited data

Results flagged for a closer look

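Among the 4 tooth types of one day, 1 of 39 groups of member levels held a value far from the rest, and chance alone gives about 1 in 20. It was ssc-miR-30b-3p on day 60, where the incisor read 6.29 in normalised log2 intensity and the next lowest RNA 6.35. None of these 4 RNAs detected the probe.

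The premolar over incisor ratio of miR-30c-5p-2750 had opposite signs on the arrays of the 2 days. It was 0.11 on day 60 in log2 and -0.21 on day 40, with all 4 spots of each array on one side. The pig probe of the same miRNA, miR-30c, read 0.01 on day 60 and -0.09 on day 40, with spots on both sides of 0. In the authors' deposited table the ratios of miR-30c-5p-2750 had one sign, -0.11 on day 60 and -0.36 on day 40. With quantile scaling over the 12 channels they were -0.09 and -0.21. In the other settings of scaling and background the signs stayed opposite. The difference between the days was not tested.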

How the results depend on the processing

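Across 28 alternatives, the number of members that passed the F tests in limma stayed at 0 for tooth type and for day. The smallest adjusted p of a member in these F tests lay between 0.0882 and 0.570 for tooth type and between 0.103 and 0.999 for day. The single contrast molar minus incisor of miR-30c passed in 2 of the 28 alternatives, both without the day-40 molar. For posterior against anterior germs the number of members that passed ranged from 0 to 1 on leaving out single RNAs or arrays. The 1 was miR-30c without the day-40 molar, and the number was 0 elsewhere. Ratios of at least 2-fold within arrays, with the probe detected in either RNA, numbered 0 in the main setting. They numbered 2 with median centring (miR-30c-5p-2750 and miR-30b-5p) and 5 in the authors' deposited values, 3 of them of 3' arm probes. The deposited values hold no single spots, so the rule on all 4 spots could not be applied and their count is not comparable. A further deposited ratio, of ssc-miR-30b-3p for the day-40 molar over canine, went beyond 2-fold. It was not counted because neither RNA detected the probe. The shares of all probes under these alternatives are not given here. Signs turned as follows. With median centring, miR-30e-5p stood at 0.32 for molar minus premolar and 0.73 for molar minus incisor, miR-30b-5p at 0.30 for posterior minus anterior, and the ratios at 0.34 (miR-30e-5p, day-40 molar over canine), 0.19 (miR-30b-5p, same pair) and 0.18 (miR-30b-5p, day-60 premolar over incisor). Without scaling between arrays, miR-30e-5p stood at 0.038 for molar minus incisor. With the later molars exchanged, miR-30d stood at -0.029 for day 60 minus day 50. On leaving out RNAs or arrays, that difference of miR-30d lay between -0.041 and 0.42, miR-30b-5p from -1.02 to 0.73 for premolar minus canine, turning without the day-50 premolar (0.37) or its array (0.73), and from -0.63 to 0.24 for posterior minus anterior, turning without the day-40 molar (0.03), its array (0.00073), the day-50 premolar (0.15) or its array (0.24). The cause was not tested. The day 60 minus day 40 differences of miR-30c stayed between 0.62 and 1.29 and of miR-30d between 0.35 and 1.11. The labels give no replicate numbers to pair by, and the array served as the block. The 3' arm lay too near the blank spots for its changes to be read.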
